A study of Mus musculus with 12 samples.

Results

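The 10 genes described here, Ncl, Nop58, Utp20, Imp4, Rrp1, Rrp15, Ddx18, Ddx21, Wdr12 and Rrs1, encode nucleolar proteins that make or process ribosomal RNA or assemble ribosomal subunits. They were chosen by name and found through their Entrez Gene identifiers, and all 10 were present among the 2398 genes of the count table. They were followed in myelinating oligodendrocytes sorted from mouse brain as cells positive for the Ndrg1-EGFP reporter and negative for propidium iodide, which stains dead cells. KO cells came from CnpCre/+;Lmnafl/fl mice, whose oligodendrocyte gene Cnp carries Cre recombinase in 1 allele, and WT cells came from Cnp+/+;Lmnafl/fl mice. Both genotypes carried the reporter and the floxed alleles of Lmna, the gene of lamins A and C, on the C57BL/6 strain. WT mice thus lack Cre and keep both Cnp alleles intact, so that effects of Cre, of Cnp dose and of Lmna recombination cannot be told apart. The age is given both as postnatal day 60 and as 8 weeks. Each genotype had 3 biological replicates with 2 libraries each, 12 libraries in all, with the number of animals behind each not given in the sources used here.

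A ribosome begins in the nucleolus, where RNA polymerase I copies the ribosomal DNA into a long precursor RNA. Small nucleolar RNAs bound to proteins such as Nop58 guide its chemical modification, the small subunit processome folds and cleaves the part that will form the small subunit, and a changing set of helicases and scaffold proteins matures the large subunit. These genes are used by all growing cells, and many are raised where protein synthesis is high. The nucleolus sits against heterochromatin that is in turn held to the nuclear lamina, of which lamins A and C are part.

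Counts in the table ranged from 3694551 to 6093336 per biological replicate, after summing its 2 libraries, which differed by little more than sampling noise (chi-square per degree of freedom from 1.00 to 1.06). The table covers genes of chromosomes 1 and 10, so these totals are not the depth of a library, and Lmna and Cnp are not analysed here. Levels are in CPM, for which each count was divided by the total over the tested genes and scaled with TMM factors. Of 26 oligodendrocyte and myelin markers 3 were in the table (Adamts4, Nfasc and Tmeff2), and the lowest value of any of them was 4205 CPM, for Nfasc in WT replicate 2. Their sum lay between 33466 and 37032.5 CPM in KO and between 28913 and 32708 CPM in WT, without overlap, and Adamts4 and Nfasc were each higher in every KO than in every WT replicate (edgeR adjusted p = 0.504 and 0.927). Of all genes tested, 8.49% did not overlap, in either direction. Tmeff2, the highest of the 3, overlapped, with 18683, 19966 and 19936 CPM in KO and 17173, 22387 and 17011.5 CPM in WT. The part of the difference in Adamts4, Nfasc and the sum in the results below was not tested. Summed microglia and macrophage markers (5 of 19 in the table) lay between 301 and 616 CPM in KO and between 229.5 and 310.1 CPM in WT. Summed astrocyte markers (4 of 13) lay between 4620.4 and 7431 CPM in KO and between 3393 and 6219 CPM in WT, most of it S100b, which oligodendrocytes also express. Summed vascular and fibroblast markers (7 of 22) lay between 974 and 1279.7 CPM in KO and between 822 and 1044 CPM in WT, neuronal markers (3 of 18) between 222 and 302 CPM in KO and between 227 and 516 CPM in WT, and progenitor markers (2 of 12) between 12.2 and 95.6 CPM in KO and between 0.497 and 36.6 CPM in WT. The highest vascular and fibroblast marker, Col6a2, had 397, 846 and 678 CPM in KO and 434, 434 and 711 CPM in WT. Fn1 had 330, 103 and 78.0 CPM in KO and 99.2, 196 and 38.5 CPM in WT. Like Fn1, Col6a1, Col3a1 and Dcn were highest in KO replicate 1 and lowest in WT replicate 3, as was the sum. Col6a2 was instead highest in KO replicate 2 and lowest in KO replicate 1. The endothelial and mural marker Rgs5 was at 0 in KO replicate 3 and in WT replicates 2 and 3, and Neu4 was at 0 in WT replicate 2. In sorted bulk cells, fewer cells of a type and less RNA per cell cannot be told apart.

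The promoters of Imp4, Rrp1, Ncl and Utp20 are shown because these genes belong to the pairs that varied most closely over the replicates. Each runs from 250 bases before to 50 after the start listed by RefSeq for GRCm38.p6, on the coding strand, and capitals mark CACGTG, the E-box recognised by MYC and related factors. Wdr12, which formed one of these pairs with Utp20, is not shown, and none of its listed promoters holds CACGTG.
Imp4, chr1:34439579-34439878, plus strand: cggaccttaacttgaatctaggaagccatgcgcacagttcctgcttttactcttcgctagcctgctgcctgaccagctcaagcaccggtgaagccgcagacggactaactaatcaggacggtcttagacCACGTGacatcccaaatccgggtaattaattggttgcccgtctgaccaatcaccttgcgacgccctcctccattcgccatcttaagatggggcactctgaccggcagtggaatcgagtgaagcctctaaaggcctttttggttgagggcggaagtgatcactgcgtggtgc
Rrp1, chr10:78412994-78413293, minus strand: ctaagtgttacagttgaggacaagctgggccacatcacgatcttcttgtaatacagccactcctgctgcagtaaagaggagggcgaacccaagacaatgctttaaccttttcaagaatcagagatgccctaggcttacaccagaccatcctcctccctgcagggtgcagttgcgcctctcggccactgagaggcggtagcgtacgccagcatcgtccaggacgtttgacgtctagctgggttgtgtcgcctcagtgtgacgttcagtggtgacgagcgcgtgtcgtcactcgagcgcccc
Ncl, chr1:86359406-86359705, minus strand: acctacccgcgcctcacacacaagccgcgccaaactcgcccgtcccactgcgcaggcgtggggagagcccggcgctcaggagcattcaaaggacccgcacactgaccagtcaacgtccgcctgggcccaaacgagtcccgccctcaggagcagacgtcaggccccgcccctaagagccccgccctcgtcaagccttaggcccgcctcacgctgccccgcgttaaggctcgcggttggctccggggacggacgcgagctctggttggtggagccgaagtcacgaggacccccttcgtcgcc
Utp20, chr10:88826765-88827064, minus strand: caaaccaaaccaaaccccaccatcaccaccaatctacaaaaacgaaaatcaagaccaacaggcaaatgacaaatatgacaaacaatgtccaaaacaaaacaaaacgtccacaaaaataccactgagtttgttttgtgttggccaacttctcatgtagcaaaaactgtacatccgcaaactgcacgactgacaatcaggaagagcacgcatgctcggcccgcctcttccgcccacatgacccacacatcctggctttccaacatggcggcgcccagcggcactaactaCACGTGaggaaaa
The Imp4 window also holds the start of Ccdc115, a gene on the opposite strand whose 5′ end lies 157 bases from the start of Imp4. The E-box of Imp4 lies 121 bases before its start, between the starts of both genes. The E-box of Utp20 lies 37 bases after its start. RefSeq promoters were listed for 9 of the 10 genes, 11 in all because Wdr12 has 3, and shares are given per promoter. Of the 11, 2 hold CACGTG, against 11.2% of 1478 promoters of tested genes and 7.15% of all 32851 promoters. The GC box GGGCGG, read on both strands, was found in 8 of the 11, the exceptions being that of Rrp1 and 2 of the 3 of Wdr12, against 59.4% of promoters of tested genes. The CCAAT box CCAAT was found in 3 of the 11, for Utp20, Imp4 and Ddx18, against 37.1% of promoters of tested genes, the ETS motif CCGGAAG in 1, for Rrp15, against 13.9%, and the TATA box TATAAA in 0, against 7.65%. The NRF1 palindrome was found in 0, against 1.83%. A match of letters is a description and not a bound site.

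The 10 genes spanned a wide range of levels, and Rrp1 stood highest. Rrp1, the mouse counterpart of a yeast factor required for large subunit RNA processing, averaged 3578 ± 332 CPM over the 6 replicates (SD). Nucleolin, encoded by Ncl, averaged 2567 ± 292 CPM, and Utp20, the lowest, averaged 82.0 ± 13.5 CPM. Levels were compared between genes only per length, with the coding length and with the longest transcript of GENCODE M21 linked to a RefSeq messenger RNA. Per kilobase of coding length Rrp1 reached 2414 ± 224 CPM, above Ncl at 1210.3 ± 138 CPM and Imp4 at 1186 ± 110.1 CPM (SD, n = 6). The ranges of Rrp1 and Ncl did not overlap, while those of Ncl and Imp4 did. Rrs1 followed at 355 ± 29.8 CPM per kilobase of coding length, then Wdr12 at 211 ± 21.9, Ddx18 at 168 ± 16.3, Nop58 at 108 ± 13.0, Rrp15 at 101 ± 17.1, Ddx21 at 75.0 ± 7.22 and Utp20 at 9.80 ± 1.61. The ranges of Nop58 and Rrp15 overlapped, as did those of Rrp15 and Ddx21, and each other neighbour in this order lay apart. Per kilobase of transcript Rrp1 stood at 1803 ± 168 CPM and Ncl at 313 ± 35.6 CPM. Rrp1, Ncl and Utp20 kept the first, second and last place with both lengths, while the other 7 genes changed places. Wdr12 ranked 5 by coding length and 8 by transcript, whose annotated length is 10012 bases against 1269 coding bases. Which transcripts these cells use was not measured.

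**Figure D1:**
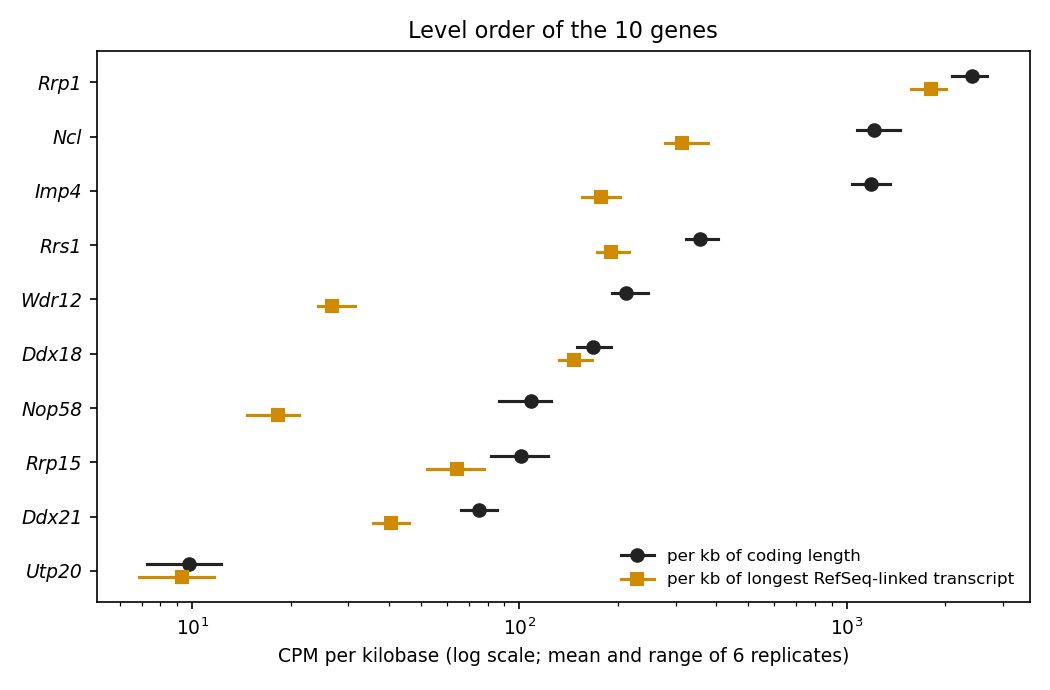
CPM per kilobase (log scale) for the 10 genes, with the mean (marker) and the range (line) of the 6 replicates, by coding length and by longest RefSeq-linked transcript. Rrp1 stands highest on both scales, at 2414 CPM per kilobase of coding length and 1803 CPM per kilobase of transcript, and Utp20 lowest.

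The comparison of KO with WT asked whether these transcripts differ between oligodendrocytes of the KO and WT genotypes. None of the 10 genes passed the test in either direction. Of 1484 genes tested, 0 (0%) were called higher and 0 (0%) lower in KO by the quasi-likelihood test of edgeR at a Benjamini-Hochberg adjusted p of 0.05, so the absence of calls is shared with the whole table. DESeq2 called 6 of 1977 genes higher (0.303%) and 1 lower (0.0506%), none of them among the 10. At an unadjusted p under 0.05 edgeR found 59 genes (3.98%) and 0 of the 10. KO and WT replicates overlapped in all 10 genes, while they did not overlap in 8.49% of all genes tested. The log2 fold change, KO over WT, was below 0 for 7 of the 10 and had a median of -0.07, against 50.5% below 0 and a median of -0.01 over all genes tested. The count was 5 of 10 with upper-quartile factors, 5 without WT replicate 2 (median 0.01) and 9 without WT replicate 1 or WT replicate 3. The summed level of the 10 genes was 9120.1, 8392 and 8623 CPM in KO and 8149.7, 9945 and 7978 CPM in WT, where the highest and the lowest values are both WT.

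Ncl encodes nucleolin, an abundant nucleolar protein that binds ribosomal RNA and histones. Ncl had 2673, 2565 and 2419 CPM in KO and 2285, 3090.4 and 2369.8 CPM in WT. Its KO replicates lay inside the WT range, with means of 2552 ± 128 CPM in KO and 2582 ± 443 CPM in WT (SD, n = 3 each). The log2 fold change was -0.02 ± 0.13 (SE), with a 95% interval from 0.80-fold to 1.22-fold (edgeR adjusted p = 0.994). Ncl lies on chromosome 1 from 86344719 to 86359455 in GRCm38, the assembly also called mm10, and holds the small nucleolar RNA genes Snora75 and Snord82 within it.

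Nop58 is a core protein of the box C/D particles that methylate ribosomal RNA. Nop58 had 170.3, 189 and 169 CPM in KO and 139, 201 and 174 CPM in WT, so that the extremes were again both WT. The log2 fold change was 0.04 ± 0.17 (SE), with a 95% interval from 0.79-fold to 1.34-fold (edgeR adjusted p = 0.994). It lies on chromosome 1 from 59684961 to 59711510. Of the small nucleolar RNAs within Ncl and Nop58, Snora75 had 2, 6 and 2 counts in KO and 9, 1 and 24 counts in WT, and Snord82 and Snord70 had 0 to 2 counts in each replicate. Snord11 had 0 counts in every replicate, which allows up to 0.204 CPM in KO and up to 0.205 CPM in WT (3 counts over a genotype). These genes were below the filter on low counts and were not tested, and their reads could not be told apart here from those of the host transcripts.

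Among genes of the small subunit, Utp20 encodes a large scaffold of the processome. With all replicates and both libraries its fitted change was larger in size than those of the other 9 genes. Rrp15 and Ddx18 exceeded it with the first library alone and without KO replicate 2 or WT replicate 3. Wdr12 and Rrp1 also did so without KO replicate 2, and Rrs1 without WT replicate 3. Utp20 had 83.5, 60.8 and 82.8 CPM in KO and 77.5, 84.7 and 103 CPM in WT. KO replicate 2 was low and WT replicate 3 high, and the other replicates lay close together. Between KO and WT the log2 fold change was -0.22 ± 0.22 (SE), with a 95% interval from 0.60-fold to 1.21-fold (edgeR adjusted p = 0.994). Leaving out single replicates moved it between -0.31 without WT replicate 1 and -0.08 without KO replicate 2. Utp20 lies on chromosome 10 from 88746607 to 88826814. Imp4, which in yeast joins the processome with the small nucleolar RNA that directs early cleavage, had 1099.7, 1024 and 1009 CPM in KO and 988, 1184 and 905 CPM in WT. All KO replicates of Imp4 fell within the WT range, and the log2 fold change was 0.03 ± 0.12 (SE), with a 95% interval from 0.84-fold to 1.24-fold (edgeR adjusted p = 0.994). It lies on chromosome 1 from 34439829 to 34445747.

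Among genes of the large subunit, Rrp1 had 3870.5, 3372 and 3702 CPM in KO and 3426, 3987 and 3110.2 CPM in WT. The means were 3648 ± 254 CPM in KO and 3508 ± 444 CPM in WT (SD, n = 3 each), and the WT replicates held both extremes. On the log2 scale KO over WT was 0.06 ± 0.12 (SE), with a 95% interval from 0.86-fold to 1.26-fold (edgeR adjusted p = 0.994). Rrp1 lies on chromosome 10 from 78400362 to 78413043. Rrp15, the counterpart of a yeast protein of large subunit precursors, had 68.9, 100.2 and 70.3 CPM in KO and 103, 85.0 and 83.9 CPM in WT. KO replicate 2 stood with the WT replicates and the other KO replicates below them. KO over WT gave a log2 fold change of -0.18 ± 0.22 (SE), with a 95% interval from 0.62-fold to 1.25-fold (edgeR adjusted p = 0.994). It was -0.38 without KO replicate 2, -0.08 without WT replicate 1, -0.09 without KO replicate 1 and -0.10 without KO replicate 3, and none of these fits called it. Rrp15 lies on chromosome 1 from 186721086 to 186749358 and overlaps the long noncoding gene A430105J06Rik on the opposite strand, which is not analysed here.

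Ddx18 and Ddx21 are RNA helicases of the DEAD-box family. Ddx18, whose yeast counterpart acts on large subunit precursors, had 339, 297 and 313 CPM in KO and 304, 376 and 362 CPM in WT. WT replicates 2 and 3 were the highest, and WT replicate 1 lay among the KO replicates. Fitted KO over WT, it gave a log2 fold change of -0.13 ± 0.13 (SE), with a 95% interval from 0.74-fold to 1.12-fold (edgeR adjusted p = 0.994). Ddx21, which has been linked both to ribosomal DNA transcription and to RNA processing, had 169, 186 and 217 CPM in KO and 178, 209 and 189.6 CPM in WT. It was the only one of the 10 with its highest value in a KO replicate. Between KO and WT the log2 fold change was -0.01 ± 0.15 (SE), with a 95% interval from 0.79-fold to 1.26-fold (edgeR adjusted p = 0.994). Ddx18 lies on chromosome 1 from 121553835 to 121567980 and Ddx21 on chromosome 10 from 62580247 to 62602298. Ddx50, a close paralogue that follows Ddx21 on the same chromosome, had 417, 395 and 401 CPM in KO and 394, 475 and 478 CPM in WT. The counting of reads shared by these paralogues was not given in the labels.

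Wdr12, a partner of Pes1 and Bop1 in the complex that prepares the large subunit RNA, had 248, 243 and 272 CPM in KO and 246, 284 and 314 CPM in WT. WT replicates 2 and 3 were the highest and WT replicate 1 lay among the KO replicates. On the log2 scale KO over WT was -0.15 ± 0.13 (SE), with a 95% interval from 0.73-fold to 1.12-fold (edgeR adjusted p = 0.994). Wdr12 lies on chromosome 1 from 60071361 to 60098500 and overlaps Carf on the opposite strand, and Carf had 35.0, 41.0 and 54.2 CPM in KO and 35.2, 48.2 and 42.0 CPM in WT. Rrs1, which in yeast brings the smallest ribosomal RNA into the large subunit together with Rpf2, had 398, 354 and 368 CPM in KO and 403, 443 and 368 CPM in WT. WT replicate 2 was the highest, and WT replicate 3 lay among the KO replicates. The log2 fold change of Rrs1 was -0.12 ± 0.12 (SE), with a 95% interval from 0.76-fold to 1.12-fold (edgeR adjusted p = 0.994). Rrs1 lies on chromosome 1 from 9545408 to 9547455.

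**Figure D2:**
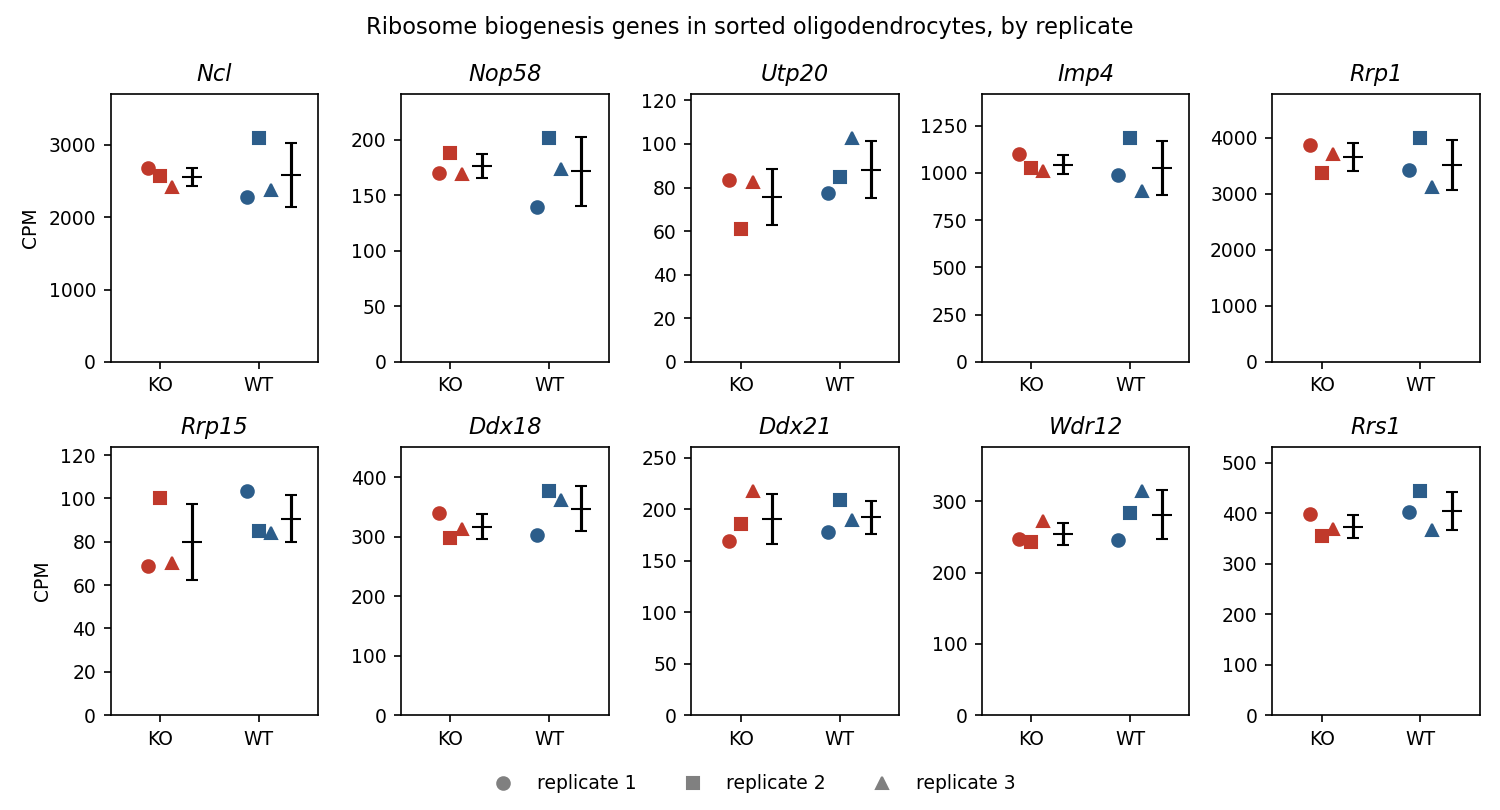
CPM of each of the 10 genes in the 3 KO (red, left) and 3 WT (blue, right) replicates, with the mean and SD in black to the right of each genotype and axes that start at 0. The replicates of the genotypes overlap in each panel, and WT replicate 2 has the highest value of 6 of the 10 genes.

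The 10 genes varied less between replicates than most genes of the table. Counts behind a value ranged from 242 for Rrp15 to 21298 for Rrp1, so that counting error alone gave a coefficient of variation from 0.759% for Rrp1 to 5.004% for Utp20. The measured coefficient of variation over the 6 replicates ran from 8.39% for Rrs1 to 16.9% for Rrp15, with a median of 10.1%. The median was 17.6% over all genes tested and 11.98% over the 875 tested genes at or above the level of Utp20, and 7 of the 10 genes lay below that second median. All 10 genes had a 95% interval between -1 and 1 on the log2 scale, against 63.6% of all genes tested and 833 of the 875 genes. The lowest fold that any of the 10 intervals allowed was 0.60, for Utp20, and the highest was 1.34, for Nop58. A p above the threshold does not show that the genotypes are equal, and changes inside these bounds cannot be told from none with 3 replicates a genotype.

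Another 11 genes of ribosome biogenesis were in the table, of 198 on lists arranged by role, and 0 were called higher and 0 lower in KO. Their log2 fold changes ran from -0.15 to 0.04 with a median of -0.08, and 10 of 11 were below 0, against 50.5% of all genes tested. The count below 0 was 8 of 11 with upper-quartile factors and 7 of 11 without WT replicate 2 or without WT replicate 3. All 11 intervals also lay between -1 and 1 on the log2 scale. Of the RNA polymerase I list, 2 of 23 genes were tested. Polr2e, a subunit shared by the nuclear RNA polymerases, had 916, 922 and 896 CPM in KO and 1007, 934 and 952 CPM in WT. It was the only one of the 11 whose replicates did not overlap, KO lying below WT, where 8.49% of all genes do not overlap in either direction. The log2 fold change of Polr2e was -0.08 ± 0.10 (SE), with an edgeR adjusted p of 0.994. Taf1a, a subunit of the RNA polymerase I selectivity factor, stood at 109.6 ± 16.2 CPM in KO and 121 ± 14.3 CPM in WT (SD, n = 3 each).

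Of the small subunit list 5 further genes were tested, with fitted log2 fold changes from -0.13 for Utp14b to 0.04 for Utp25. Ltv1, a factor of late small subunit maturation, had 604, 558 and 507 CPM in KO and 601, 595 and 504 CPM in WT. Wdr75 stood at 223 ± 30.4 CPM in KO and 225 ± 20.7 CPM in WT, and Pwp2 at 205 ± 3.19 CPM in KO and 211 ± 33.6 CPM in WT (SD, n = 3 each), both processome subunits. Utp14b overlaps Acsl3 on the same strand, so that reads of the pair may not be told apart, and had 128 ± 14.4 CPM in KO and 140.4 ± 26.8 CPM in WT. Acsl3 stood at 3378 ± 199.5 CPM in KO and 4111 ± 487 CPM in WT. Of the large subunit list 4 further genes were tested. Ddx50 had the largest fitted change of the 11, at -0.15 ± 0.12 (SE) on the log2 scale (edgeR adjusted p = 0.994). Rpf2, the partner of Rrs1, stood at 214 ± 11.1 CPM in KO and 217 ± 30.3 CPM in WT. Nifk, which binds the proliferation antigen Ki-67, stood at 341 ± 23.9 CPM in KO and 361 ± 65.1 CPM in WT, and Nvl, an ATPase that releases factors from large subunit precursors, at 354 ± 53.7 CPM in KO and 378 ± 68.8 CPM in WT. The list of exosome and ribonuclease genes had 0 of 26 members in the table.

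**Figure D3:**
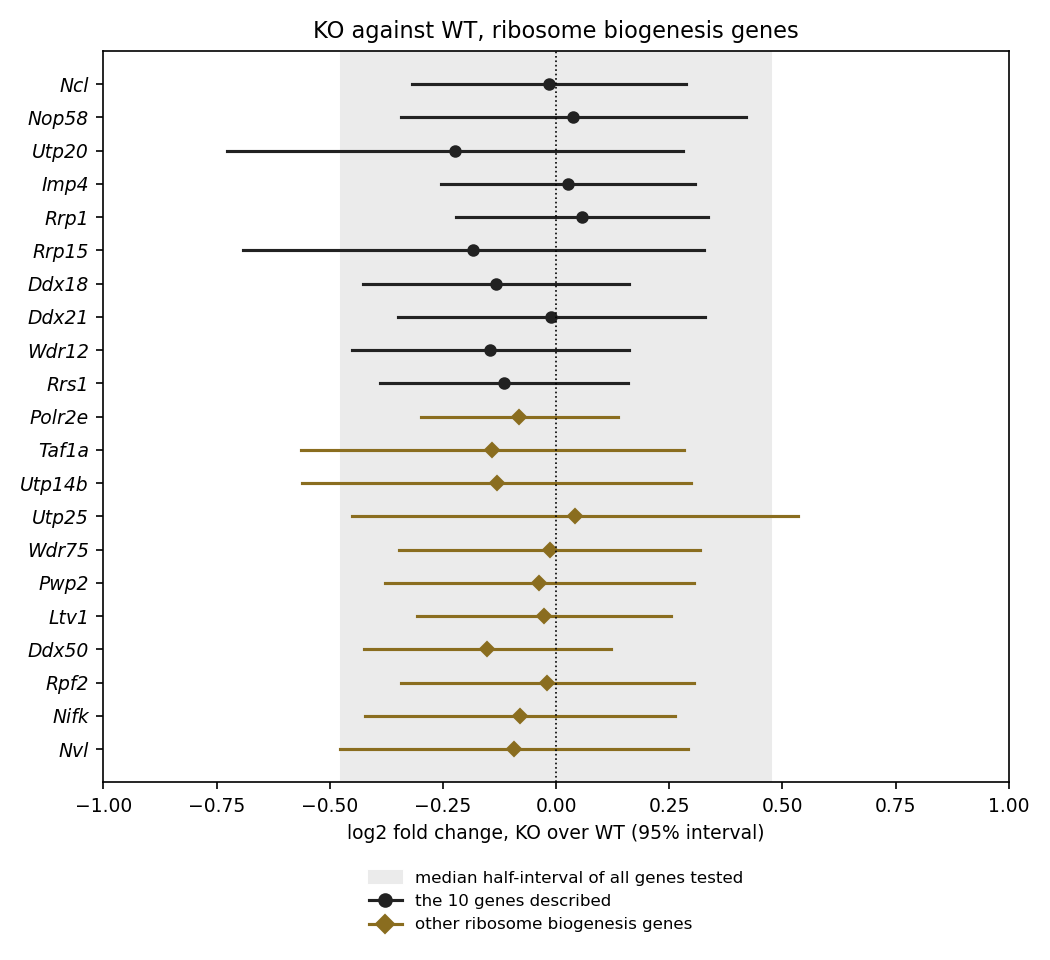
Fitted log2 fold change, KO over WT, with its 95% interval for the 10 genes (black circles) and the other 11 ribosome biogenesis genes (brown diamonds). The grey band is the median half-interval over all 1484 genes tested, 0.48 log2 units, and each interval includes 0.

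The genes did not all vary together over the replicates. Over the 45 pairs of the 10 genes the Pearson r of log2 CPM ran from -0.50 to 0.92 with a median of 0.23, and 30 pairs (66.7%) were above 0, against 50.2% of all pairs of tested genes, whose median r was 0.00. WT replicate 2 had the highest value for 6 genes (Ncl, Nop58, Imp4, Rrp1, Ddx18 and Rrs1) and the lowest for 0, and KO replicate 2 had the lowest for 4 (Utp20, Ddx18, Wdr12 and Rrs1). Without WT replicate 2 the median r was -0.14 and 18 of 45 pairs were above 0. Each r rests on 6 replicates that share the same scaling, and members of a pair share those replicates.

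Imp4 and Rrp1 formed the closest pair, with r = 0.92 (exact permutation p = 0.0111, two-sided over 720 pairings, adjusted p = 0.375 over 45 pairs) and rho = 0.83 (exact permutation p = 0.0583, adjusted p = 0.525). The r was 0.73 without the 2 replicates farthest from the median of Imp4 and 0.92 with deviations from the genotype means. Ncl and Imp4 followed, with r = 0.89 (exact permutation p = 0.0167, adjusted p = 0.375) and rho = 0.94 (exact permutation p = 0.0167, adjusted p = 0.25), and r = 0.90 without the 2 farthest replicates. Utp20 and Wdr12 gave r = 0.81 (exact permutation p = 0.0472, adjusted p = 0.607) and rho = 0.94 (exact permutation p = 0.0167, adjusted p = 0.25), and r = 0.66 without the 2 farthest replicates. Rrp1 and Rrp15 had the lowest r, at -0.50 (exact permutation p = 0.314, adjusted p = 0.886), with rho = -0.31 (exact permutation p = 0.564, adjusted p = 1) and r = -0.96 without the 2 farthest replicates. After adjustment 0 of the 45 pairs passed, and 3 had an unadjusted p under 0.05 for Pearson r.

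**Figure D4:**
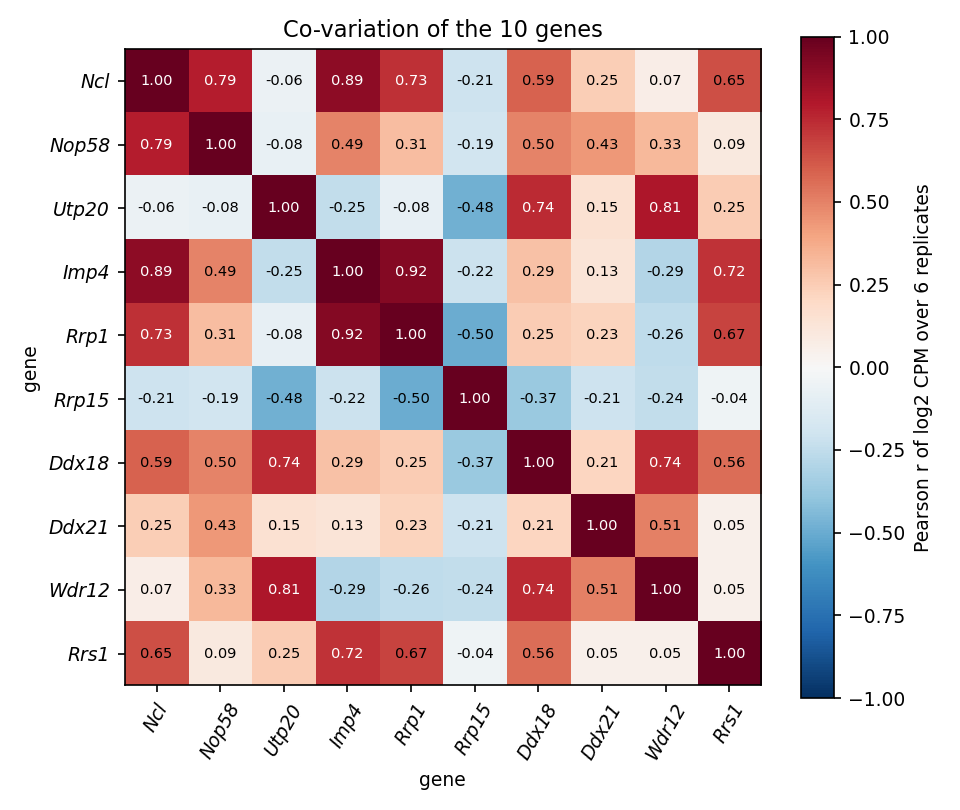
Pearson r of log2 CPM over the 6 replicates for each pair of the 10 genes, written in each cell and coloured from blue (-1) to red (1). Imp4 with Rrp1 (0.92) and Ncl with Imp4 (0.89) are the highest, Utp20 with Wdr12 reaches 0.81, and Rrp15 is below 0 with each of the other 9 genes.

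The level of Rrp1 followed the reverse order of the immediate early genes, which tissue dissociation can induce. Of 21 immediate early genes 5 were in the table (Egr2, Ier5, Btg2, Atf3 and Ptgs2), and their sum was 401, 2444 and 1212 CPM in KO and 1606, 293 and 3576 CPM in WT. Rrp1 was highest in WT replicate 2, where that sum was lowest, and lowest in WT replicate 3, where it was highest, and every replicate between them kept the reverse order (rho = -1, exact permutation p = 0.00278, adjusted p = 0.194 over 70 relations of the 10 genes with 7 marker lists). The Pearson r with the log2 sum was -0.96 (exact permutation p = 0.00139, adjusted p = 0.0972), r was -0.96 without the 2 replicates farthest from the median sum and -0.98 with deviations from the genotype means. Only 3 of the 1484 tested genes, Rrp1 included, had an r as low. The TMM factors, by which levels are divided, rose in nearly the same order as the sum. They ran from 0.951 in KO replicate 1 and 0.969 in WT replicate 2 to 1.037 in KO replicate 2 and 1.047 in WT replicate 3. The part of this scaling in the reverse order was not tested. Imp4 gave r = -0.93 (exact permutation p = 0.00694, adjusted p = 0.194), rho = -0.83 (exact permutation p = 0.0583, adjusted p = 0.733) and r = -0.68 without the 2 farthest replicates. Rrs1 gave r = -0.81 (exact permutation p = 0.0542, adjusted p = 0.371) and rho = -0.77 (exact permutation p = 0.103, adjusted p = 0.733), with r = -0.99 for deviations from the genotype means and -0.37 without the 2 farthest replicates. Ncl gave r = -0.79 (exact permutation p = 0.0528, adjusted p = 0.371) and rho = -0.71 (exact permutation p = 0.136, adjusted p = 0.733), a relation that rests on the 2 farthest replicates, without which r was 0.18. Of the 70 relations 7 had an unadjusted p under 0.05 and 0 passed after adjustment. The other 5 were those of Rrs1 and Ddx18 with the progenitor and astrocyte sums (r between -0.91 and -0.77) and of Wdr12 with the neuronal sum (r = 0.87). For Wdr12 rho was 0.60 (exact permutation p = 0.242). The neuronal sum was highest in WT replicate 3, where Scg2 had 226 CPM against 2.66 to 36.7 CPM in the other replicates. All 70 relations were looked for after the values were seen, and the part of the immediate early response or of the sort in these levels was not tested. The immediate early sums overlapped between the genotypes.

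**Figure D5:**
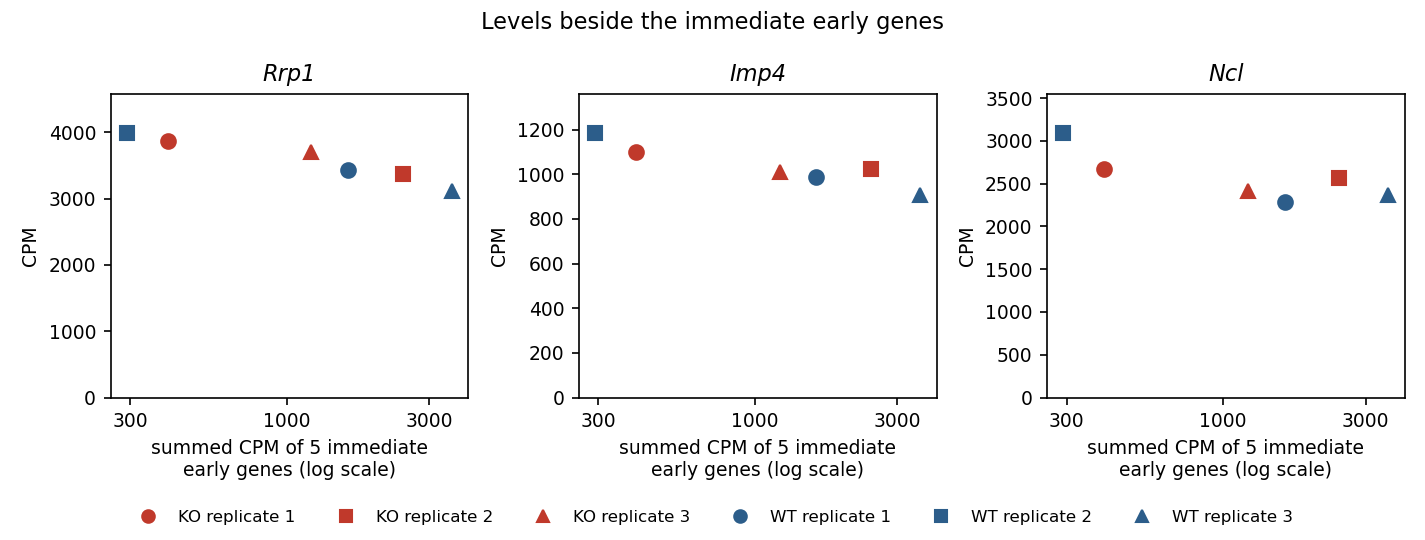
CPM of Rrp1, Imp4 and Ncl (vertical axes from 0) against the summed CPM of 5 immediate early genes (log scale) in 3 KO (red) and 3 WT (blue) replicates. Rrp1 falls from left to right over all 6 replicates, between 3987 CPM at a sum of 293 CPM and 3110.2 CPM at a sum of 3576 CPM.

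The tested genes outside the 10 whose log2 CPM most resembled the mean standardised profile of the 10 over the 6 replicates were Farsb (r = 0.94), Parpbp (0.92), Armt1 (0.91), Acadl (0.90) and Sgk3 (0.90). Farsb, a subunit of phenylalanyl-tRNA synthetase, had 804, 723 and 732 CPM in KO and 757, 1006 and 830.3 CPM in WT. Acadl, a mitochondrial acyl-CoA dehydrogenase, had 1202, 1126 and 1202 CPM in KO and 1033, 1349 and 1139.5 CPM in WT. Parpbp had between 6 and 15 counts in a replicate, where counting error alone gives a coefficient of variation of 31.6% against 41.1% measured. The mean profile itself peaks in WT replicate 2, at 0.47 against -0.21 to -0.01 in the other replicates. Each of the 5 was highest in WT replicate 2 too, which follows from how they were chosen. Among the 10, Ncl (0.86), Ddx18 (0.83) and Rrs1 (0.73) lay closest to the mean profile, which contains them, and Rrp15 (-0.27) farthest.

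Ccdc115, which shares its promoter region with Imp4, had 369, 343 and 336 CPM in KO and 407, 364 and 326 CPM in WT. Its highest value was in WT replicate 1, where Imp4 was second lowest. Both genes were lowest in WT replicate 3 and fell in the same order from KO replicate 1 to KO replicate 3. Kifbp, the coding gene nearest to Ddx21 at 1181 bases, had 4824, 4448 and 4708 CPM in KO and 4672, 4811 and 4019 CPM in WT. Its highest value was in KO replicate 1, the lowest replicate of Ddx21, with WT replicate 2 close to it. These neighbours were chosen by position and no difference between them and the 10 genes was tested.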

How the data were processed

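RNA of sorted oligodendrocytes was sequenced as 50 bp single-end reads, per the labels' protocols. The authors deposited, for each library, an unnormalised count per gene. The submitters' processing notes name HISAT2, featureCounts, fastp, SAMtools 1.4.1 and build mm10, with settings, strand use and the handling of shared reads not given in the sources used here. Of 2398 complete lines 2226 matched a RefSeq symbol (GRCm38.p6), and 1 incomplete last line was dropped.

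The 2 libraries of a replicate were summed. Genes passing filterByExpr were fitted in edgeR 4.0.16 (R 4.3.3, TMM, robust quasi-likelihood, Benjamini-Hochberg over 1484 genes), which was tested on simulated data. SE is the log2 fold change over the square root of F. Log2 CPM used a prior count of 2. An exact permutation test of 3 against 3 cannot give a two-sided p under 0.1. Alternatives were other size factors, no filter, DESeq2 1.42.0, limma-voom (limma 3.58.1), a replicate block, single libraries and leaving out each replicate. Lengths come from GENCODE M21. The replicates may come from separate animals, which the labels do not state beyond calling them biological.

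The genes and lists were chosen with earlier results of these data known. Named genes were the 10, at least the 2 of highest CPM and any called gene of each list, the 3 pairs of highest and 1 of lowest r, the 5 genes most like the mean profile, and each marker list by its sum. Acsl3, Carf, Ccdc115 and Kifbp were added by position. The floor, 3 counts over a genotype, covers counting error alone.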

Additional observations from a re-analysis of the deposited data

How the results depend on the processing

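The counts of 0 of the 10 genes and 0 of the other 11 called in either direction held under every alternative run, with adjusted p of at least 0.809. Over all genes the counts of 0 higher and 0 lower moved to 6 and 1 with DESeq2. The cause was not tested. The replicate block left 0 higher and 0 lower, and same-numbered KO and WT replicates had deviations correlated at -0.0032, -0.30 and 0.14, so the numbers were not taken as pairs. Fitted changes near 0 turned sign without reaching the threshold: with upper-quartile factors Ncl (0.0083), Ddx21 (0.0098), Wdr75 (0.0046) and Rpf2 (0.0068), for Ddx21 also with RLE factors (0.00058), DESeq2 (0.0021) and limma-voom (0.00029), with the first library alone Pwp2 (0.027) and Rpf2 (0.0055), and with the second Nop58 (-0.020), Ddx21 (0.0057) and Utp25 (-0.072). Without single replicates the log2 fold change ranged from -0.099 to 0.14 for Ncl, -0.093 to 0.18 for Nop58, -0.050 to 0.15 for Imp4, -0.016 to 0.17 for Rrp1, -0.12 to 0.067 for Ddx21, -0.26 to 0.0073 for Utp14b, -0.036 to 0.14 for Utp25, -0.13 to 0.057 for Wdr75, -0.17 to 0.049 for Pwp2, -0.097 to 0.035 for Ltv1, -0.080 to 0.099 for Rpf2, -0.18 to 0.079 for Nifk and -0.22 to 0.055 for Nvl. Utp20 (-0.31 to -0.084), Rrp15 (-0.38 to -0.082), Ddx18 (-0.22 to -0.064), Wdr12 (-0.23 to -0.052), Rrs1 (-0.17 to -0.035), Taf1a (-0.24 to -0.023), Ddx50 (-0.24 to -0.097) and Polr2e (-0.094 to -0.050) stayed below 0 without any single replicate and in the other fits. The 4 named pairs kept the sign of r with RLE and upper-quartile factors, a prior count of 0.5, each library alone and deviations from the genotype means, where 0 of 45 pairs passed, and without WT replicate 2, where no p was computed. Within genotypes the permutations cannot give a p under 0.0278, so that alternative says nothing about stability. Correlations with marker sums, the coding length and the values without WT replicate 2 were chosen after seeing the data.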
